A study of Mus musculus with 46 samples.

Results

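The genes described here are 45 interferon-stimulated genes, taken by symbol from a table of 53465 mouse genes. All 45 symbols were found in the table. Expression was measured by RNA-sequencing as FPKM, a read density scaled for transcript length and library size, in cells sorted from kidneys of wild-type (WT) C57BL/6 mice. The study's methods give male mice of 8 to 12 weeks. The LTL+ cells were proximal tubule (PT) cells, which bind Lotus tetragonolobus lectin, the F4/80+ cells were macrophages, the CD31+ cells were endothelial and the PDGFRB+ cells were stromal. All mice had surgery, which was a sham operation, unilateral ureteric obstruction (UUO, a ligated ureter) or UUO followed by reversal (rUUO, in which the ureter was reimplanted). The study's methods place the UUO kidneys at day 2 or day 7 and the rUUO kidneys at 14 days after reversal. The labels do not give the day of a UUO library, so UUO is treated as 1 group.

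The 44 libraries used were 3 sham, 4 UUO and 3 rUUO from PT cells, 4, 4 and 3 from macrophages, 4, 3 and 4 from endothelial cells, and 4 of each from stromal cells. The series' design names 4 mice a group, and the labels do not say whether libraries of different populations with the same number came from 1 mouse. The p-values therefore measure the spread between these libraries. The table holds no counts, so depth is not known in reads and no counting interval is given. FPKM summed to between 586929 and 884982 a library. The mitochondrial genome took 58.7% to 75.6% of that sum in PT libraries, 34% to 45.8% in stromal sham, 21.5% to 26.4% in stromal UUO and 20.2% to 25.9% in stromal rUUO. In sham libraries the 4 marker genes fixed for each population (Lrp2, Cubn, Slc34a1 and Slc5a2 for PT cells) summed to 1588 to 2189 FPKM in PT cells, 2640 to 3585 in macrophages, 2180 to 2685 in endothelial cells and 918 to 2415 in stromal cells, each in its own sort. Outside the PT sort the PT markers summed to at most 114.9 FPKM.

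Interferons are secreted proteins that bind receptors on most cell types and signal through JAK kinases to STAT transcription factors. STAT2 and IRF9 are parts of the complex ISGF3, which binds the interferon-stimulated response element (ISRE), while the response to interferon-gamma acts through the gamma-activated site (GAS). The genes that follow encode sensors of foreign nucleic acid, proteins that block viral replication, GTPases that act on the membranes of intracellular pathogens, and parts of the machinery that loads peptides onto MHC class I.

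The RefSeq promoter windows (GRCm38.p6, 250 bases before to 50 after a transcript start) gave at least 1 entry for 34 of the 45 genes. The ISRE core was searched as GAAA, any 2 bases, GAAA (on the other strand TTTC, any 2 bases, TTTC). The GAS core was searched as TTC, any 3 bases, GAA, which reads the same on both strands. Both were searched independently, so that matches may share bases. An ISRE core lay in the windows of 19 of the 34 genes (55.9%), against 1079 of all 27025 genes with an entry (3.99%). A GAS core lay in those of 9 of the 34 (26.5%), against 2582 of all genes (9.55%). A match is a description of the letters and not evidence of a bound site. The windows below, each of 30 bases, belong to genes whose values are given further on, and the capitals mark the bases of ISRE cores.
Stat2: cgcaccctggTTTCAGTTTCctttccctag
Isg15: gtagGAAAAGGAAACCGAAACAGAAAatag
Ifit1: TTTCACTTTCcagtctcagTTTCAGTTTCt
Ifit3: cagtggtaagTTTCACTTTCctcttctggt
Ifit3b: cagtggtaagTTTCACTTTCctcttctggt
Bst2: attccagGAAAATGAAACTGAAAggctgca
Ifitm3: gGAAAAGGAAActtctgaGAAACCGAAAct
Gbp2: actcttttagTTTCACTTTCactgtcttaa
Gbp3: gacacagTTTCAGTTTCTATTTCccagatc
Irgm1: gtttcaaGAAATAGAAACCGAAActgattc
On GRCm38.p6 these lie at chr10:128270266-128270295 (Stat2, plus strand), chr4:156200871-156200900 (Isg15, minus), chr19:34640785-34640814 (Ifit1, plus), chr19:34583363-34583392 (Ifit3, plus), chr19:34607759-34607788 (Ifit3b, plus), chr8:71537580-71537609 (Bst2, minus), chr7:141010714-141010743 (Ifitm3, minus), chr3:142620594-142620623 (Gbp2, plus), chr3:142559992-142560021 (Gbp3, plus) and chr11:48871428-48871457 (Irgm1, minus). The Isg15 window held 3 overlapping matches in 1 run of bases, and those of Bst2, Gbp3 and Irgm1 held 2 overlapping matches each. In Ifit1 and Ifitm3 the window held 2 separate matches. The windows of Ifit3 and its close copy Ifit3b were identical, and reads of these genes may be split between them. The genes with no entry were Parp14, Oas2, Mx2, Parp9, Rtp4, Nlrc5, Iigp1, Usp18, Dhx58, Zbp1 and Mx1.

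The first comparison was of levels between populations without injury. In sham kidneys the interferon-stimulated genes were lowest in PT cells for 44 of 45 genes, and highest in macrophages for 27 and in endothelial cells for 17. The share of all genes with such an order was not counted, and shares by limma are given below. The mean over the 45 genes of log2(FPKM + 1) was 1.12 ± 0.0357 (SD, n = 3) in PT cells, 3.46 ± 0.223 (n = 4) in stromal cells, 4.56 ± 0.228 (n = 4) in endothelial cells and 4.79 ± 0.0998 (n = 4) in macrophages. Between 19 and 22 of the genes reached 1 FPKM in a PT sham library, while all 45 did in every macrophage library. The exception was Samd9l, a restriction factor for poxviruses, with mean levels of 25.9 FPKM in PT cells, 25.8 in macrophages, 23.9 in endothelial cells and 17.7 in stromal cells. The sham libraries of the 4 populations overlapped for Samd9l.

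**Figure D1:**
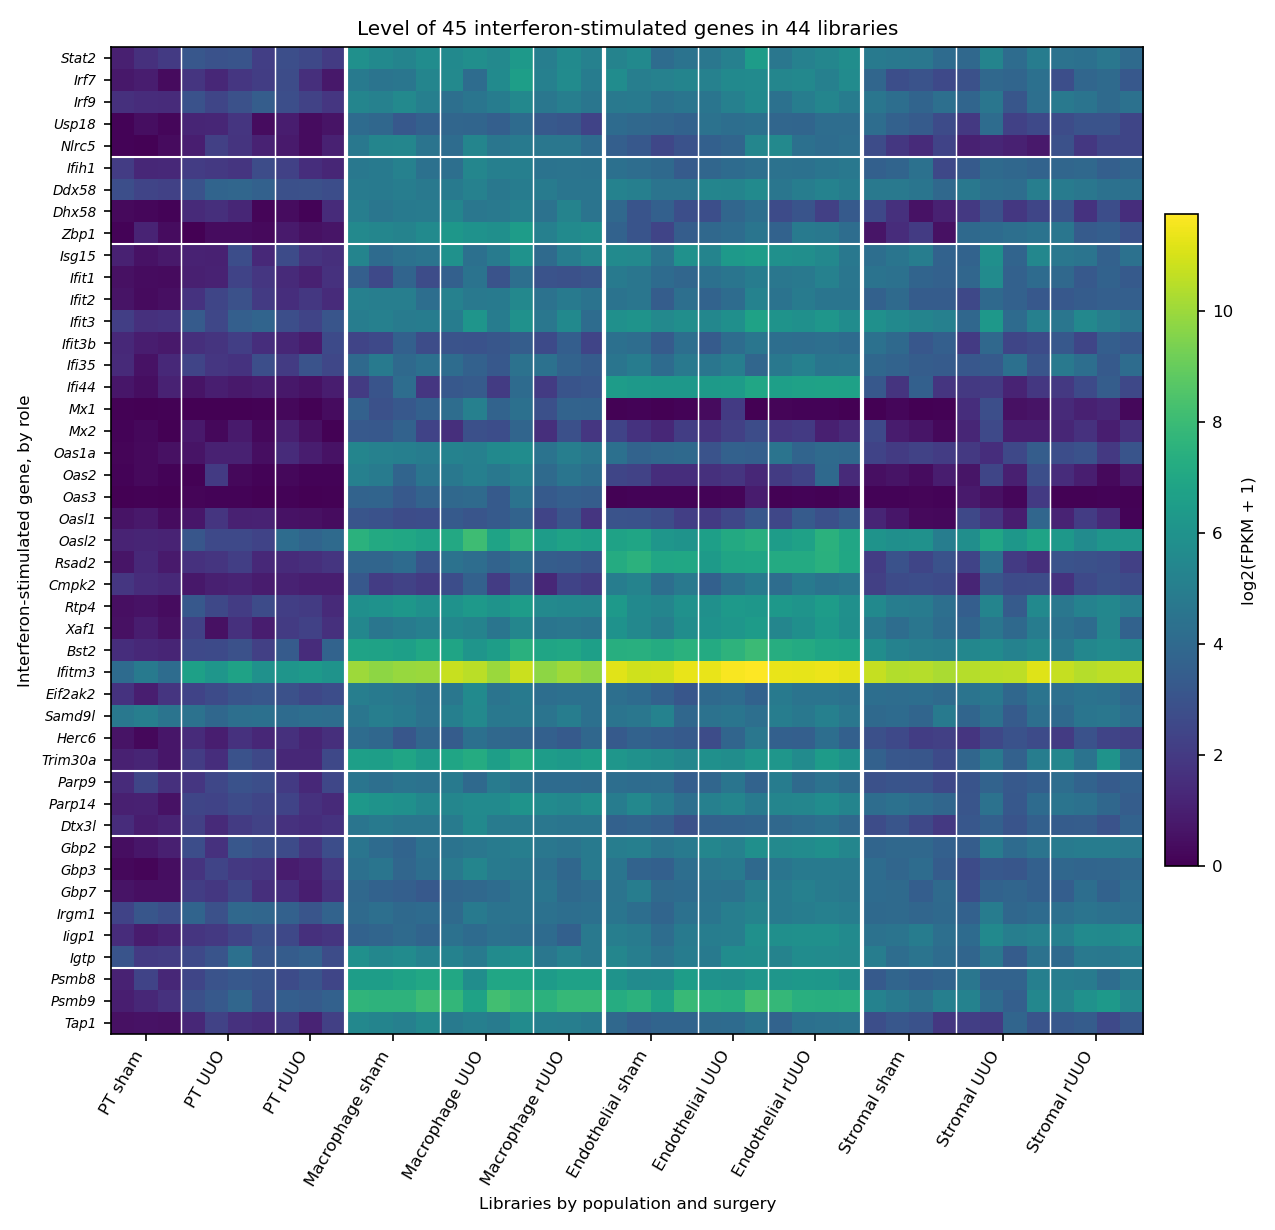
Level of each of the 45 interferon-stimulated genes (rows, ordered by role) in each of the 44 libraries (columns, grouped by population and surgery), as log2(FPKM + 1). PT sham columns are the darkest, dark marking low values, with 19 to 22 genes at 1 FPKM or more. PT UUO columns have 34 to 40 and each macrophage column all 45.

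With limma on log2(FPKM + 1), 1 fit on all 44 libraries and Benjamini-Hochberg adjustment over 14332 genes, 44 of the 45 genes were lower in PT cells than in macrophages in sham kidneys at an adjusted p under 0.05, where 49.8% of all genes were. Against endothelial cells 42 were lower, where 52.2% of all genes were. Against stromal cells 38 were lower, where 58.1% of all genes were. Ifitm3, a membrane protein that blocks virus entry, was measured at 16.28, 26.3 and 16.83 FPKM in the PT sham libraries, and at 866.21 to 1046.82 in macrophages, 1214.11 to 1683.01 in stromal cells and 1876.96 to 2619.88 in endothelial cells. The PT libraries lay far below all others. The PT minus endothelial difference in Ifitm3 was -6.74 (SE 0.194, adjusted p = 1.74e-26 by limma). For Psmb9, an immunoproteasome subunit, the PT minus macrophage difference was -6.39 (SE 0.342, adjusted p = 4.39e-19 by limma). PT cells also differed from other cells over the whole table, with a median PT minus macrophage difference of -0.84 over all genes and of -3.48 over the 45. When mitochondrial genes were removed and FPKM rescaled, these medians were -0.04 and -2.96.

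Macrophages and endothelial cells differed in which members stood highest. Against endothelial cells 15 of the 45 genes were higher in sham macrophages and 9 were lower, where 19.6% and 23.8% of all genes were. Rsad2, which encodes the antiviral radical SAM enzyme viperin, had a mean of 144.2 FPKM in endothelial cells, 12.5 in macrophages, 5.27 in stromal cells and 0.963 in PT cells, all in sham kidneys. Ifi44, an interferon-induced cytoplasmic protein, followed the same order at 79.98, 7.64, 6.14 and 0.743 FPKM. On the log2 scale macrophages were lower than endothelial cells by limma for Ifi44 (-3.54, SE 0.406, adjusted p = 1.47e-09) and for Rsad2 (-3.46, SE 0.327, adjusted p = 1.01e-11). Mx1, of the dynamin-like GTPase family, was at 6.53 to 11.51 FPKM in sham macrophages and at most 0.17 in any sham library of another population. Oas3, which makes the oligoadenylates that activate RNase L, had a mean of 11.5 FPKM in sham macrophages and at most 0.0875 elsewhere. Both were higher in macrophages than in endothelial cells, by 3.26 for Mx1 (SE 0.361, adjusted p = 6.21e-10) and 3.53 for Oas3 (SE 0.251, adjusted p = 2.74e-15). Stromal cells were lower than macrophages for 27 genes and higher for 4, where 18.9% and 27.3% of all genes were. Stromal cells were lower than endothelial cells for 25 and higher for none by limma, where 9.8% and 13.9% of all genes were. At an unadjusted p under 0.05 there were 26 of the 45. Here and below, the share of all genes at an unadjusted p was not counted, so no conclusion is drawn from such counts. The largest macrophage minus stromal difference was that of Zbp1, a sensor of Z-form nucleic acid, at 4.27 (SE 0.312, adjusted p = 6.12e-15), and the largest endothelial minus stromal difference was that of Rsad2, at 4.56 (SE 0.327, adjusted p = 1.64e-14).

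The next comparison asked how the genes differed between obstructed and sham kidneys within PT cells. After UUO, 23 of the 45 genes rose in PT cells and none fell, where 27.9% of all 11416 genes tested rose and 4.91% fell. Of the 45 genes, 35 reached the mean of 1 FPKM that was required for testing, and a gene that did so only through its UUO libraries would be high there by construction. Among the 23, Nlrc5, Gbp3 and Ifit1 did so, since their sham and rUUO libraries together averaged under 1 FPKM. With no filter Nlrc5 and Gbp3 were called and Ifit1 was not. Over all 45 genes, tested or not, every UUO library lay above every sham library for 26 and below for 2. Among the 11416 genes tested this held for 34.5% and 6.07%, so these shares leave out genes of low level. The median difference was 1.18 over the 35 tested members, against 0.505 over all genes tested. With no filter it was 1.06 over all 45 genes and 0.13 over the 25747 genes then tested, all on the log2(FPKM + 1) scale. This scale understates the change of genes near 0. The mean over the 45 genes was 2.09 ± 0.16 (SD, n = 4) in PT UUO and 1.12 ± 0.0357 (n = 3) in PT sham.

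**Figure D2:**
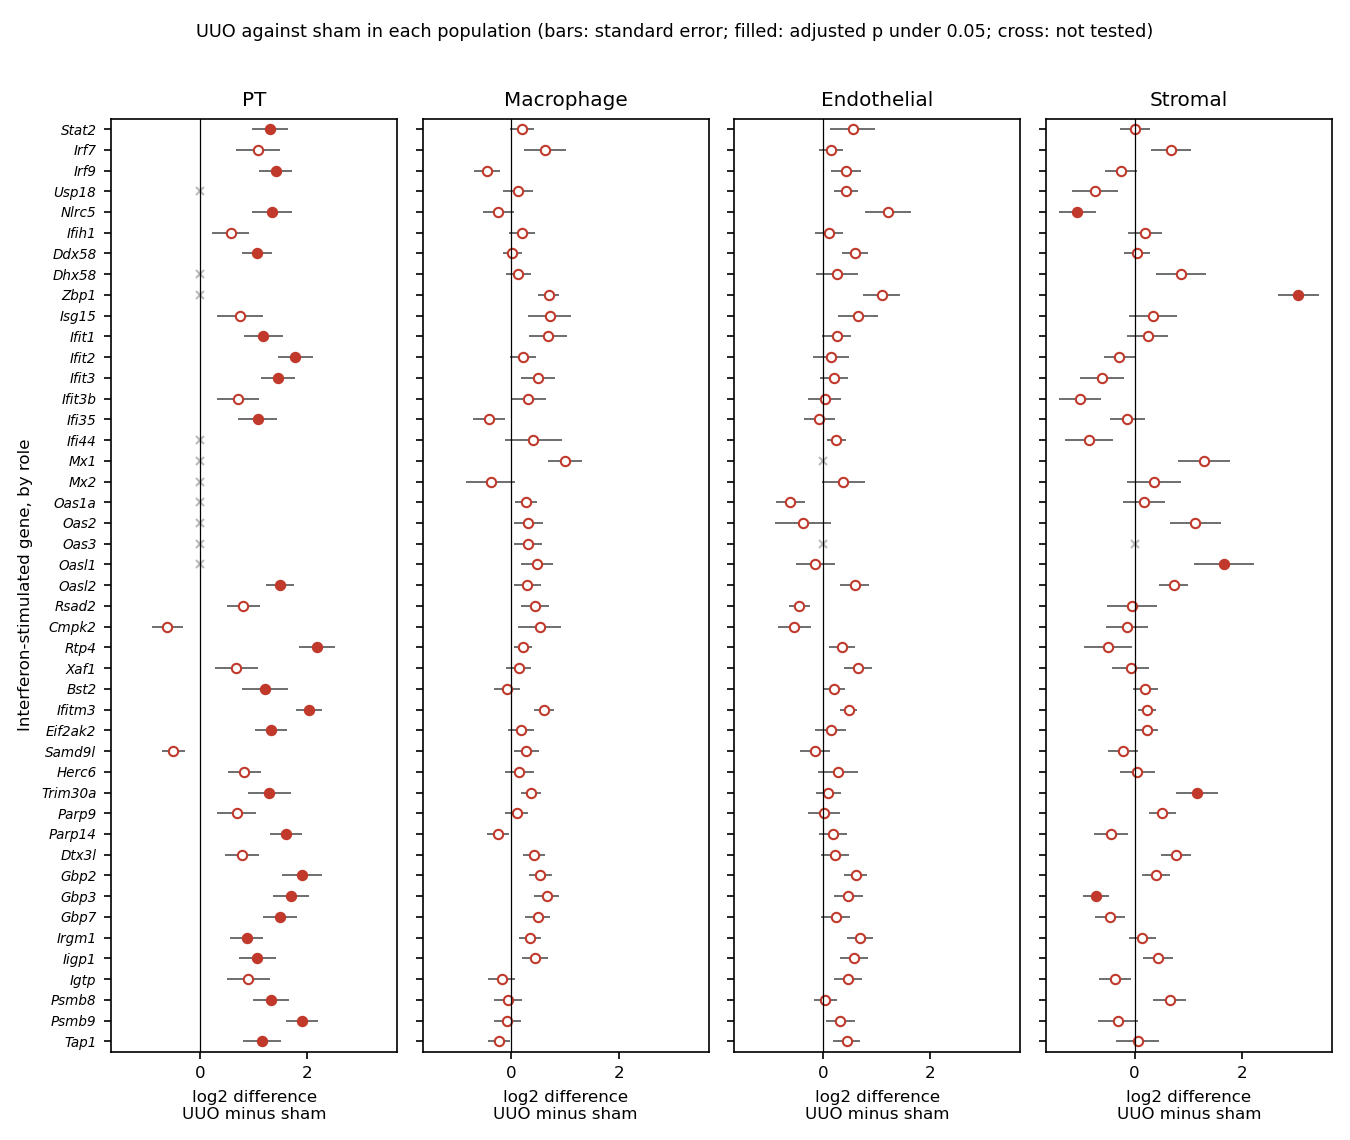
Difference between UUO and sham in each of the 45 genes (vertical axis) on the log2(FPKM + 1) scale (horizontal axis), in 4 panels for the 4 populations. Bars are standard errors, filled points have a limma adjusted p under 0.05 and crosses mark genes not tested, with 23 filled points in PT cells, all above 0, none in macrophages or endothelial cells, and 5 in stromal cells.

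Among the 5 signalling and transcription genes, 4 were tested and 3 rose in PT cells after UUO. Stat2, a subunit of ISGF3, was at 1.03, 2.1 and 2.95 FPKM in sham and at 8.19, 6.79, 7.38 and 3.52 in UUO, a difference of 1.31 (SE 0.336, adjusted p = 0.00939 by limma). Irf9, its DNA-binding subunit, was at 2.14, 1.85 and 1.74 in sham and at 6.72, 4.54, 6.59 and 10.08 in UUO, a difference of 1.41 (SE 0.311, adjusted p = 0.00364). The groups did not overlap for either gene, and the Stat2 call was lost without sham library 1 (difference 1.04). Nlrc5, the transactivator of MHC class I genes, had a mean of 2.05 FPKM in UUO and 0.133 in sham. Nlrc5 reached the level tested only through its UUO libraries, so it would be high there by construction. It fell below that level, and was not tested, without UUO library 3 or without UUO library 2, whose title names both surgeries. Nlrc5 was also below the level tested with FPKM rescaled to 1 sum, and after quantile normalization it was tested but not called. Irf7, the regulator that amplifies type I interferon production, had no overlap either, at 0.25 to 0.93 in sham and 1.44 to 3.32 in UUO, but its adjusted p was 0.0593. Usp18, which removes ISG15 from proteins and dampens receptor signalling, was below the level tested, at 0.1 to 0.35 in sham and 0.31 to 2.56 in UUO. Of the 4 sensors 2 were tested and 1 rose, namely Ddx58 (RIG-I, a sensor of viral RNA), from a mean of 4.75 to 11.2 FPKM. The related RNA sensor Ifih1 had means of 2.08 and 3.59 (adjusted p = 0.215).

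Of the 24 antiviral effectors 17 were tested and 10 rose. Rtp4, an interferon-induced receptor transporter protein, showed the largest difference of the 45. Its PT libraries were at 0.39, 0.48 and 0.29 FPKM in sham and at 8.52, 4.9, 3.3 and 5.43 in UUO. The difference was 2.18 (SE 0.328, adjusted p = 0.000216 by limma). Ifitm3 was at 16.28, 26.3 and 16.83 FPKM in sham and at 99.9, 71.74, 108.45 and 60.19 in UUO, a difference of 2.04 (SE 0.242, adjusted p = 2.65e-05). Each UUO library exceeded all sham libraries for both genes. The Ifit genes encode proteins that bind viral RNA and limit its translation. Ifit2 rose by 1.78 (SE 0.331, adjusted p = 0.00115), from 0.27 to 0.54 FPKM across sham libraries to 2.27 to 6.56 across UUO libraries. Ifit3 rose by 1.45 (SE 0.321, adjusted p = 0.00373), from 2.1 to 3.5 FPKM to 4.74 to 12.57. Ifit1, which reached the level tested only through its UUO libraries, also passed the test, and Ifit3b, at means of 1.08 and 2.43, did not (adjusted p = 0.174). Bst2, the tetherin that holds budding virions at the cell surface, was at 1.33 to 1.86 FPKM in sham and 3.63 to 6.45 in UUO (difference 1.21, SE 0.432, adjusted p = 0.044). That call was lost without any 1 of 6 libraries, the exception being UUO library 4, with differences of 1.11 to 1.29. Ifi35, Oasl2, Eif2ak2 (PKR, the kinase that halts translation on double-stranded RNA) and Trim30a also rose.

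Effectors did not move as 1 block. Isg15, the ubiquitin-like modifier, was at 1.08, 0.5 and 0.75 FPKM in PT sham and at 1.15, 1.08, 5.76 and 1.57 in PT UUO, with 1 UUO library far above the others and an adjusted p of 0.19. Mx1 stayed at or below 0.05 FPKM and Oas3 at or below 0.12 in PT sham and UUO libraries. Samd9l was at 22.21 to 31 FPKM in sham and 14.18 to 20.5 in UUO, a difference of -0.49 (adjusted p = 0.0904). Cmpk2, a mitochondrial nucleotide kinase encoded beside Rsad2, was at 1.55 to 2.67 in sham and 0.7 to 1.24 in UUO, a difference of -0.60 (adjusted p = 0.127). The UUO libraries lay below the sham libraries for both Samd9l and Cmpk2, and both were called lower after quantile normalization.

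All 6 interferon-inducible GTPases were tested and 5 rose, and the 3 antigen-processing genes were tested and rose. Gbp2, a guanylate-binding protein, was at 0.34, 0.63 and 1.06 FPKM in PT sham and at 5.78, 2.18, 8.16 and 6.39 in PT UUO, a difference of 1.90 (SE 0.376, adjusted p = 0.00174 by limma). Gbp3 was at 0.2, 0.11 and 0.37 in sham and 2.36, 4.34, 2.86 and 2.59 in UUO, a difference of 1.70 (SE 0.335, adjusted p = 0.0017). No sham library reached a UUO library for Gbp2 or Gbp3, but Gbp3 reached the level tested only through its UUO libraries. Irgm1, an immunity-related GTPase, overlapped between groups, at 4.15 to 7.69 FPKM in sham and 6.62 to 14.77 in UUO (difference 0.88, SE 0.305, adjusted p = 0.0401). Its call was lost when UUO library 1, 3 or 4 or sham library 1 or 4 was left out, with differences of 0.68 to 0.90. The GTPase Igtp, at means of 4.5 and 9.78, did not pass (adjusted p = 0.0974). Psmb9 was at 0.99, 1.51 and 2.22 FPKM in sham and 6.25, 8.73, 13.82 and 6.76 in UUO, a difference of 1.91 (SE 0.297, adjusted p = 0.000282). Psmb8, the partner immunoproteasome subunit, was at 1.21, 4.13 and 1.48 in sham and 4.4, 6.96, 8.55 and 7.22 in UUO, a difference of 1.33 (SE 0.335, adjusted p = 0.00855). Tap1, which pumps peptides into the endoplasmic reticulum, rose from a mean of 0.453 to 2.36 FPKM. That call was lost without UUO library 2 or sham library 1 or 4. Of the PARP and DTX3L group, whose proteins modify others with ADP-ribose or ubiquitin, all 3 were tested and Parp14 rose from a mean of 0.883 to 4.66 FPKM, while Parp9 and Dtx3l did not pass (adjusted p = 0.167 and 0.0642).

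These levels remained low beside the other cell types. For 36 of the 45 genes the PT UUO mean was under 25% of the macrophage sham mean, and for 39 the highest PT group mean was below the lowest group mean of any other population. The shares of all genes under these rules were not counted. In sham kidneys 49.8% of all genes were themselves called lower in PT cells than in macrophages. The Ifitm3 mean in PT UUO was 8.8% of that in sham macrophages. Zbp1 was at most 0.33 FPKM in PT UUO. Markers of other cells in the PT libraries are given beside these values, since their part in the differences was not tested. The 4 PT markers summed to 424.1 to 573.1 FPKM in UUO, all 4 lower than in sham. The thick ascending limb markers Umod and Slc12a1 summed to 17.35 to 22.06 FPKM in sham and 140 to 175.7 in UUO, with 1 of 2 called higher. The 4 macrophage markers summed to 6.49 to 12.58 in sham and 6.81 to 18.19 in UUO, with none called, and the leukocyte marker Ptprc was at 0.5 to 1.05 and 0.52 to 2.11, against 244.7 to 276.9 in sham macrophages. T and NK cell markers summed to at most 0.19 FPKM in these 2 PT groups, B cell markers to at most 2.53, neutrophil markers to at most 1.08 and plasmacytoid dendritic cell markers to at most 0.2. The endothelial markers summed to 7.55 to 13.22 in sham and 10.91 to 23.25 in UUO, and the stromal markers to 15.11 to 20.63 and 21.02 to 47.63, with 1 of 4 stromal markers called higher. In sorted bulk RNA, fewer cells of a type and less RNA per cell cannot be told apart.

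The size of the PT difference depended on scale. Over all genes the calls were 85% higher and the median difference was 0.51, and quantile normalization brought these to 51.8% and -0.02. The median of the tested members was 1.18 and became 0.61. After quantile normalization 9 members were called higher and 2 lower, where 1283 and 1196 of all 11416 genes were. Before and after quantile normalization the median of the tested members stood above that of all genes tested. Members that reached 1 FPKM only through their UUO libraries may do so by construction, so no conclusion is drawn from this. With mitochondrial genes removed, 18 members were called higher and 1 lower, where 2014 and 857 of all 12605 genes were. With no filter 16 were called higher and none lower, where 2314 and 405 of 25747 genes were. Rtp4, Ifitm3, Psmb9, Gbp2, Ifit2 and Gbp3 passed in all 14 alternatives run.

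In PT cells after reversal, 7 of the 45 genes were higher in rUUO than in sham and none lower, where 6.52% of all genes were higher and 0.946% lower. Every rUUO library lay above every sham library for 27 of the 45, tested or not, where this held for 20.6% of the 11416 genes tested. Oasl2, an oligoadenylate synthetase-like protein, was at 1.24, 1.34 and 1.22 FPKM in sham, 7.83, 4.94, 5.11 and 4.19 in UUO, and 16.89, 12.8 and 15.68 in rUUO. The 3 groups did not overlap. Oasl2 rose by 1.49 from sham to UUO (adjusted p = 0.000705 by limma) and was higher again in rUUO than in UUO by 1.33 (SE 0.261, adjusted p = 0.0161). It was the only 1 of the 45 to pass between rUUO and UUO, where 3.83% of all genes passed, and none of the 45 passed without rUUO library 2. Against sham its rUUO difference was 2.82 (SE 0.279, adjusted p = 1.53e-05).

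The other 6 genes higher in PT rUUO than in sham were Psmb9 (2.16, SE 0.318, adjusted p = 0.00054 by limma), Ifitm3 (1.81, SE 0.259, adjusted p = 0.000421), Gbp2 (1.73, SE 0.402, adjusted p = 0.0162), Rtp4 (1.41, SE 0.351, adjusted p = 0.0246), Ifi35 (1.38, SE 0.385, adjusted p = 0.0428) and Eif2ak2 (1.24, adjusted p = 0.0308). Psmb9 was at 10.31, 9.21 and 11.41 FPKM in rUUO and Ifitm3 at 69.42, 78.46 and 64.46, both above all their sham libraries and within the range of the UUO libraries. Rtp4 was at 3.59, 3.15 and 1.64, with 2 of its rUUO libraries below every UUO library. Bst2 was at 9.42, 1.84 and 12.47, with 1 library near the sham level. The count of 7 fell to 3 without sham library 1, leaving Oasl2, Ifitm3 and Psmb9, and to 4 without rUUO library 2 or 4. Oasl2, Psmb9 and Ifitm3 passed in all 13 alternatives run. The sham and UUO groups are shared by these comparisons, so their values are set side by side only. Markers moved in PT rUUO too. The PT markers summed to 965.6 to 1248 FPKM in rUUO, with 2 of 4 called lower than in sham and 2 called higher than in UUO, and the thick ascending limb markers to 44.75 to 134.9, with Umod called higher than in sham and lower than in UUO. Their part in the differences was not tested.

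**Figure D3:**
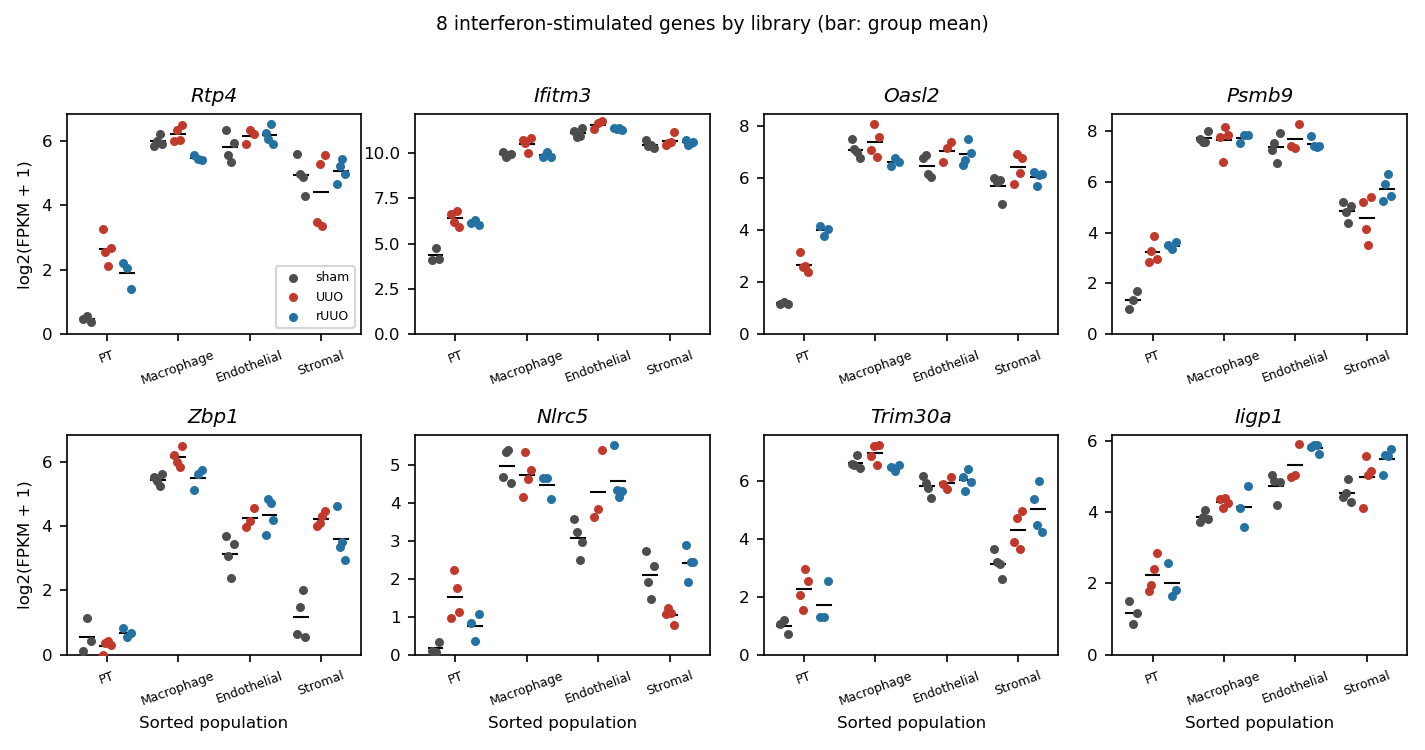
Level, as log2(FPKM + 1), of 8 of the 45 genes (Rtp4, Ifitm3, Oasl2, Psmb9, Zbp1, Nlrc5, Trim30a and Iigp1) in each library, by population and surgery. A bar marks each group mean. PT values are low in every panel. Before the log2 step, Oasl2 in PT cells was between 1.22 and 1.34 FPKM in sham and between 12.8 and 16.89 FPKM in rUUO.

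In macrophages, where all 45 genes were tested, no gene passed between UUO and sham by limma, while 4.99% of all genes did. At an unadjusted p under 0.05 there were 5, namely Zbp1, Mx1, Ifitm3, Gbp2 and Gbp3, with the share of all genes not counted. In 1 fit on all populations 1 was called higher, Ifitm3, where 562 of all 14332 genes were. Ifitm3 was at 1046.82, 866.21, 963.53 and 989.62 FPKM in sham and at 1710.84, 1492.02, 1014.45 and 1778.69 in UUO, a difference of 0.60 (SE 0.184, adjusted p = 0.0785). UUO library 3 lay within the sham range. Without UUO library 3 Ifitm3 passed, and without UUO library 2 Irf7 did. Irf7 was at 22.2 to 39.78 FPKM in sham and at 45.38, 17, 47.37 and 94.75 in UUO. Zbp1 was at 36.55 to 47.64 in sham and 56.47 to 89.62 in UUO without overlap (adjusted p = 0.0637).

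Between rUUO and UUO macrophages no gene of the 45 passed by limma, as no gene of the whole table did (0.0%). At an unadjusted p under 0.05 there were 16 of the 45, with the share of all genes not counted. No alternative run called a member here. The mean was lower in rUUO for 42 of the 45, and the 3 rUUO libraries lay below all UUO libraries for 11, where this held for 3.68% of all genes. The median difference over the 45 was -0.485, against -0.0163 over all genes. Rtp4 had means of 73.5 FPKM in UUO and 43 in rUUO (difference -0.75, adjusted p = 0.298). Between rUUO and sham none passed by limma, where 3.44% of all genes did, and 4 had an unadjusted p under 0.05, with none called by any alternative run. Markers of other cells moved in the macrophage sort. The neutrophil markers S100a8 and S100a9 summed to 3.15 to 8.1 FPKM in sham, with 10.73 to 90.15 after UUO, both called higher, and 5.56 to 21.02 after reversal. B cell markers summed to 1.25 to 2.08, 2.18 to 31.11 and 2.24 to 5.74 in the same order, and T and NK cell markers to at most 0.72, 1.19 to 33.65 and 3.99 to 24.17, with 1 of each list called higher in UUO than in sham. The plasmacytoid dendritic cell markers summed to 1.65 to 4.79, 0.09 to 3.01 and 0.9 to 1.79, with Siglech called lower in UUO than in sham, and the PT markers to 75.54 to 91.21, 10.58 to 23.7 and 10.63 to 14.37, with 2 of 4 called lower in UUO. No marker was called between rUUO and UUO, as no gene of the table was. The macrophage markers summed to 2640 to 3585, 1024 to 2830 and 2443 to 2941. Their part in the values was not tested.

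In endothelial cells no gene of the 45 passed between UUO and sham by limma, where 1.98% of all genes did. There were 11 at an unadjusted p under 0.05, with the share of all genes not counted. Quantile normalization called 1 higher, Ifitm3, where 157 of all 13393 genes were. The mean was higher in UUO for 38 of the 45. Ifitm3 was at 1876.96 to 2619.88 FPKM in sham and 2574.99 to 3419.99 in UUO (difference 0.48, adjusted p = 0.168). Between rUUO and UUO none passed by limma, where 0.0597% of all genes did, 3 had an unadjusted p under 0.05 and no alternative run called any.

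Between endothelial rUUO and sham 1 gene rose, Iigp1, where 1.4% of all genes did. Iigp1, an immunity-related GTPase that attacks the vacuoles of intracellular parasites, was at 31.92, 28.26, 17.25 and 27.97 FPKM in sham and at 55.84, 58.43, 58.46 and 48.1 in rUUO. The groups did not overlap, and the difference was 1.07 (SE 0.242, adjusted p = 0.0326 by limma). The call was lost without rUUO library 1, 2, 4 or 6 or without sham library 3 or 4, with differences of 0.89 to 1.13. Gbp2 was at 22.89 to 32.32 in sham and 40.55 to 56.08 in rUUO without overlap (adjusted p = 0.0864). Nlrc5 had means of 7.67 and 24.9 FPKM (adjusted p = 0.069) and Zbp1 of 8.32 and 20.5 (adjusted p = 0.0722). In all, rUUO libraries lay above sham libraries without overlap for 9 of the 45, where this held for 7.88% of all genes tested.

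In stromal cells 3 genes rose and 2 fell after UUO, where 13.4% of all genes rose and 13.0% fell. Zbp1 was at 0.57, 1.78, 3.07 and 0.46 FPKM in sham, 15.08, 16.18, 18.81 and 21.26 in UUO, and 23.44, 9.26, 10.24 and 6.71 in rUUO. The sham libraries lay below all others. Zbp1 rose by 3.05 in UUO (SE 0.386, adjusted p = 2.7e-05 by limma) and by 2.43 in rUUO (SE 0.386, adjusted p = 0.000353), and both calls held in all 15 alternatives run. Trim30a, an interferon-induced TRIM protein, was at 11.54, 8.14, 7.85 and 5.21 in sham and 13.9, 25.5, 11.68 and 30.53 in UUO, a difference of 1.16 (SE 0.390, adjusted p = 0.0382). This was lost without UUO library 2 or 4 or without sham library 2, 3 or 4, with differences of 0.94 to 1.17. Oasl1, a relative of Oasl2 that represses translation of Irf7 mRNA, was at 1.33, 0.65, 0.23 and 0.18 FPKM in sham and 4.87, 2.53, 0.89 and 13.55 in UUO (adjusted p = 0.0394), with 1 UUO library inside the sham range. The Oasl1 call was lost without UUO library 1 or 4 or without sham library 2, 3 or 4.

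Nlrc5 moved in the opposite direction. It was at 5.65, 2.76, 1.74 and 4.08 FPKM in stromal sham, 1.1, 1.36, 1.14 and 0.73 in UUO, and 6.45, 2.78, 4.44 and 4.41 in rUUO. The UUO libraries lay below all others. The UUO minus sham difference was -1.06 (SE 0.344, adjusted p = 0.0323 by limma) and the rUUO minus UUO difference was 1.37 (SE 0.344, adjusted p = 0.0378), where 2.95% of all genes rose and 1.22% fell. The fall in UUO was lost without UUO library 1 or 4 or sham library 1, 2 or 4 (-1.13 to -0.85). The rise in rUUO was lost without rUUO library 1, 4 or 6 or any UUO library but 3 (1.22 to 1.44). Gbp3 was at 9.61 to 16.84 in sham and 5.5 to 11.16 in UUO, with overlap (difference -0.72, adjusted p = 0.0438). Its call held without UUO library 4 or sham library 4 and was lost without any other of these libraries. It was also lost with no filter, with FPKM rescaled to 1 sum and with the replicate block. The count of 5 became 3 without UUO library 4 or sham library 1 and 2 without sham library 2, 3 or 4.

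Stromal UUO libraries differed among themselves. The mean over the 45 genes was 3.25, 4.06, 3.34 and 3.93 in libraries 1 to 4. Isg15 was at 12.15, 56.45, 12.83 and 42.63 FPKM and Rtp4 at 10.27, 37.97, 9.22 and 46.65 in the same order. Libraries 2 and 4 were high and 1 and 3 low for both genes. For Isg15, libraries 2 and 4 lay above the sham range of 11.81 to 30.23 and the others inside it. The labels give no day for any of these libraries, nor whether they were taken at more than 1 day, so this spread cannot be set against the day.

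After reversal 6 of the 45 genes were higher in stromal cells than in sham and none lower, where 11.6% and 5.57% of all genes were. Every rUUO library lay above every sham library for 9 of the 45, where this held for 16.1% of all genes tested. The share of the 45 was thus near that of the genes tested. Trim30a was at 40.63, 21.47, 63.9 and 17.83 FPKM in rUUO, a difference of 1.88 from sham (SE 0.390, adjusted p = 0.00316 by limma). Gbp2 was at 13.31, 14.63, 14.4 and 11.29 in sham and 26.52, 29.43, 29.07 and 26.17 in rUUO, a difference of 1.00 (SE 0.261, adjusted p = 0.0139). No library of either gene overlapped between the groups. The others were Zbp1, Psmb8 (1.08, SE 0.303, adjusted p = 0.0212), Iigp1 (0.95, SE 0.278, adjusted p = 0.0268) and Parp9 (0.85, SE 0.255, adjusted p = 0.0316). Without rUUO library 2 or 6 or sham library 1 the count was 3, and Zbp1, Trim30a and Gbp2 passed with any 1 library left out. Removing mitochondrial genes, whose share was lower in UUO and rUUO than in sham, left 2 of the 6.

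Other markers moved with these stromal values. The stromal markers summed to 918 to 2415 FPKM in sham libraries, with 6332 to 11330 after UUO and 4735 to 6355 after reversal, with 3 of 4 called higher in UUO than in sham and 1, Pdgfrb, called lower, and the thick ascending limb markers to 235.9 to 309.4, 27.97 to 53.92 and 49.13 to 84.15. Neutrophil markers summed to at most 0.42 in sham libraries, with 5.63 to 53.61 after UUO and 0.95 to 33.84 after reversal. The endothelial markers summed to 48.25 to 64.4, 22.78 to 47.86 and 41.96 to 91.15 in sham, UUO and rUUO, with Pecam1 and Emcn called lower in UUO than in sham and Emcn higher in rUUO than in UUO. The PT markers summed to 23.85 to 40.99, 5.18 to 8.35 and 6.64 to 13.82, with the 3 tested called lower in UUO than in sham. The macrophage markers summed to 15.33 to 20.36, 8.03 to 18.32 and 8.56 to 20.29, with Csf1r called lower in UUO and rUUO than in sham, and Ptprc was at 0.69 to 0.83, 0.45 to 2.62 and 0.73 to 2.06. T and NK cell markers summed to at most 0.82. The part of these in the stromal differences was not tested.

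**Figure D4:**
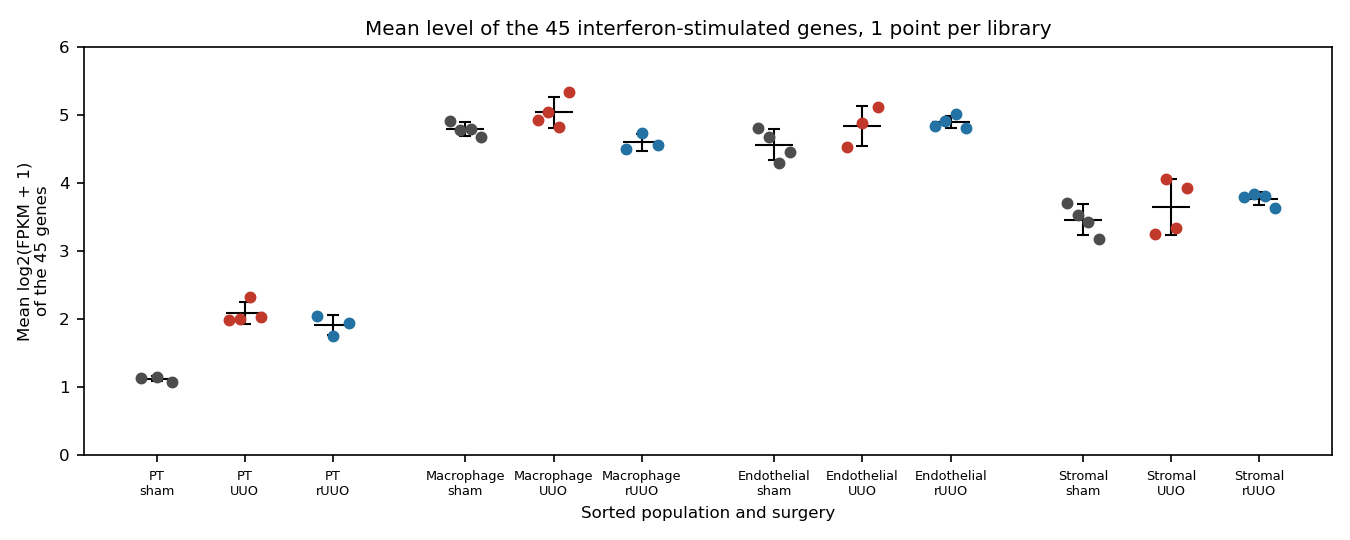
Mean over the 45 genes of log2(FPKM + 1) in each library (points), with group mean and SD, by population and surgery. PT cells lie lowest, at 1.12 in sham, 2.09 in UUO and 1.91 in rUUO, and stromal UUO libraries are spread between 3.25 and 4.06.

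Whether the UUO difference itself differed between populations was tested in the fit on all libraries. PT cells changed more than macrophages for 16 of the 45 genes and less for none, where 13.7% of all genes changed more and 1.77% less. Against endothelial cells the counts were 10 and 0, where 10.1% and 1.06% of all genes did. Against stromal cells it was 18 more and 1 less, where 23.0% and 6.16% of all genes were. The medians over all genes were themselves 0.446, 0.4 and 0.507, so the PT change stood above that of other populations across the table. Rtp4 differed in all 3 comparisons, by 1.96 against macrophages (SE 0.482, adjusted p = 0.0038 by limma), 1.82 against endothelial cells (SE 0.500, adjusted p = 0.0118) and 2.68 against stromal cells (SE 0.482, adjusted p = 3.75e-05). Psmb9 differed by 1.98 against macrophages (SE 0.466, adjusted p = 0.00246) and by 1.59 against endothelial cells (SE 0.484, adjusted p = 0.0256). The last of these lost its call after quantile normalization. Under that setting 7 of the 45 genes changed more and 1 less in PT cells than in macrophages. Against endothelial cells 2 changed more and 1 less, and against stromal cells 12 more and 4 less. Of all 14332 genes, 972 changed more and 697 less against macrophages, 800 and 447 against endothelial cells, and 1927 and 1697 against stromal cells. The share of the 45 against endothelial cells was thus near that of all genes.

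The stromal changes of Zbp1 and Gbp3 differed from those in each other population, and that of Nlrc5 from those in PT and endothelial cells. The Zbp1 change in PT minus stromal cells was -3.34 (SE 0.459, adjusted p = 3.74e-07 by limma), in macrophages minus stromal cells -2.36 (SE 0.441, adjusted p = 0.000141) and in endothelial minus stromal cells -1.95 (SE 0.459, adjusted p = 0.00269). Zbp1 was below the level tested within PT cells. The Gbp3 change was higher than the stromal one in PT cells by 2.42 (SE 0.362, adjusted p = 1.77e-06), in macrophages by 1.37 (SE 0.348, adjusted p = 0.00435) and in endothelial cells by 1.19 (SE 0.362, adjusted p = 0.0225). The last of these was lost with a pseudocount of 0.1 (1.28) and after quantile normalization (1.11). Nlrc5 exceeded the stromal change by 2.41 in PT cells (SE 0.512, adjusted p = 0.000373) and by 2.28 in endothelial cells (SE 0.512, adjusted p = 0.00171), while the macrophage minus stromal difference of 0.82 did not pass (SE 0.492, adjusted p = 0.283). Of the 45 genes, 2 passed between macrophages and stromal cells (1 in each direction, 16.2% of all genes in either) and 4 between endothelial and stromal cells (2 in each, 13.1% in either). Between macrophages and endothelial cells none passed by limma, where 2.31% of all genes did, 4 had an unadjusted p under 0.05 and no alternative run called any.

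The rest of the interferon pathway was read from a list of 63 other genes. None of the 9 interferon ligands listed reached the mean level for testing in any population. The highest value of any ligand in a library was 0.66 FPKM in PT cells, 0.85 in endothelial cells, 1.91 in stromal cells and 2.84 in macrophages. In PT cells 40 of the 63 were tested and 21 rose and 1 fell after UUO, where 27.9% of all genes tested rose and 4.91% fell. Receptors among them included Ifngr1, the ligand-binding chain of the interferon-gamma receptor, which rose by 1.70 (SE 0.256) from a mean of 3.57 to 13.9 FPKM. Of the regulators, Socs3, a feedback inhibitor of JAK signalling, rose by 2.87 from 0.47 to 9.9 FPKM, and Irf1 rose by 1.69 from 0.97 to 5.91. Tmem173 (STING, the adaptor of cytosolic DNA sensing) rose by 2.41 from 0.16 to 5.44, Cxcl10, a chemokine for T cells, by 2.27 from 4.54 to 21.5, and Ly6e, a surface protein that restricts virus entry, by 3.64 from 51 to 658. Irf8, a transcription factor best known in myeloid cells, fell by 1.00 from 2.6 to 0.773 FPKM.

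In PT rUUO against UUO 3 of the 40 tested fell, Ifngr1, Tmem173 and Ly6e, where 3.15% of all genes fell, and against sham 8 rose, where 6.52% did. In stromal cells 49 were tested, and 12 rose and 3 fell after UUO, where 13.4% and 13.0% of all genes did, with Socs3 at means of 5.63 and 36.4 FPKM. In stromal rUUO 12 of the 49 were higher than in sham, where 11.6% of all genes were. Between stromal rUUO and UUO B2m and Tapbp rose, where 2.95% of all genes did. In macrophages after UUO Socs3 and Ikbke rose and Tlr9 fell among 51 tested, where 2.86% and 2.13% of all genes did, and in endothelial cells Socs3 and Tmem173 rose among 47, where 1.28% did. Socs3 was thus called higher after UUO in all 4 populations.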

How the data were processed

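Kidney cells were sorted by the study into 4 populations and sequenced as paired reads. The authors deposited 1 table of FPKM, rounded to 2 decimals, on mouse genome build mm10. The submitters' processing notes name FastQC, Bowtie2 and RSEM, with no parameters given in the sources used here. RSEM divides reads that fit several genes between them, which bears on Ifit3 and Ifit3b and on the Gbp and Oas families, and strand was not stated, so overlapping antisense genes cannot be told apart.

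Of 46 value columns, 44 were used. The other 2 carry 1 name, that of an endothelial UUO sample, and were left out. No column carries the name of PT sham sample 3. A PT sample whose title holds both surgeries (PT UUO library 2) was grouped by its treatment label. Without it the PT UUO count was again 23. Nlrc5 was then below the level tested, Bst2 and Tap1 lost their calls, and Irf7, Herc6 and Dtx3l were gained. Of the 63 pathway genes 1 is counted but not reported here by name. Genes averaging 1 FPKM or more over the libraries entering a fit were tested on log2(FPKM + 1) by limma 3.58.1 (lmFit, contrasts, eBayes with trend; R 4.3.3), 1 fit per population over its 3 groups, with Benjamini-Hochberg adjustment over all genes and a threshold of 0.05. Sham levels and differences of the UUO change between populations came from 1 fit on the 44 libraries. SE is limma's posterior standard error. Tables and plots used Python 3.11.15, numpy 2.4.6, pandas 2.3.3 and matplotlib 3.10.9. The fits were tested on simulated data.

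Named in detail, where past the threshold, were 11 listed members, up to 6 rises and 3 falls per comparison, and up to 4 differences between populations, chosen by size among those past the threshold. Other genes named, such as Irf7, Isg15, Samd9l and Cmpk2, were added for their role or after their values were seen. The 45 genes, the marker lists and the 63 pathway genes were chosen with earlier results of these data known. Alternatives were a pseudocount of 0.1, no filter, FPKM rescaled to 1 sum, quantile normalization, rescaling without 37 mitochondrial genes, a replicate block, a mouse block, 1 fit on all populations, and each library left out in turn. Same-numbered libraries of different surgeries deviated together with correlations of -0.0618 to 0.117, not over 0.1 in every pair, so the numbers were not taken to pair libraries.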

Additional observations from a re-analysis of the deposited data

Results flagged for a closer look

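Over 96 groups of 4 libraries examined for a library far from the others, 2 values stood out, where chance gives about 1 in 20 groups. For Psmb8 in macrophage UUO, library 2 was at 52.68 FPKM and the others at 129.34, 122.2 and 121.92, a gap of 0.934 of the range. For the mean of the 45 genes in PT UUO, library 3 stood highest at 2.32, a gap of 0.858 of the range.

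The other values stood out because the UUO change differed between 2 populations by limma's test of the difference itself. On the log2 scale, PT minus macrophage changes were 1.98 for Psmb9, 1.96 for Rtp4, 1.87 for Irf9 and 1.85 for Parp14. PT minus endothelial changes were 1.82 for Rtp4, 1.63 for Ifit2, 1.59 for Psmb9 and 1.56 for Ifitm3. PT minus stromal changes were -3.34 for Zbp1, 2.68 for Rtp4, 2.42 for Gbp3 and 2.41 for Nlrc5. Macrophage minus stromal changes were -2.36 for Zbp1 and 1.37 for Gbp3. Endothelial minus stromal changes were 2.28 for Nlrc5, -1.95 for Zbp1, -1.81 for Oasl1 and 1.19 for Gbp3.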

How the results depend on the processing

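Of the 24 counts of members past the threshold, 112 of 138 recomputed values, leaving aside those without 1 library, stayed within 1.5 times. The others are given here. The cause of each was not tested. Quantile normalization gave 11 for PT UUO against sham, 4 for PT rUUO against sham, 1 for endothelial UUO, 0 for endothelial rUUO against sham and for stromal rUUO against UUO, and 8 and 3 for the change in PT minus macrophage and PT minus endothelial cells. No filter, which tested more genes, gave 3 for PT rUUO against sham, 0 for endothelial rUUO against sham, 1 for stromal UUO and 0 for stromal rUUO against UUO. One fit on all populations gave 13 for PT rUUO against sham, 1 for macrophage UUO, 3 for endothelial rUUO against sham, 11 for stromal UUO and 3 for stromal rUUO against UUO. Without mitochondrial genes the counts were 0 for endothelial rUUO against sham, 0 for stromal rUUO against UUO, 2 for stromal rUUO against sham and 4 for macrophage minus stromal changes. A pseudocount of 0.1 gave 18 for PT minus endothelial changes.

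With the replicate block the counts were 4 for PT rUUO against sham, 0 for endothelial rUUO against sham, 3 for stromal UUO, 0 for stromal rUUO against UUO and 2 for stromal rUUO against sham, and 20 for PT UUO against sham. The block moved no other count by over 1.5 times. The numbers are shared names rather than a pairing, and in PT UUO against sham 2 of 3 numbers, and in stromal UUO against sham 0 of 4, correlated best with their own.

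With 1 library left out the counts ranged from 16 to 23 for PT UUO, 0 to 1 for PT rUUO against UUO, 3 to 7 for PT rUUO against sham, 0 to 1 for macrophage UUO, 0 to 1 for endothelial rUUO against sham, 2 to 6 for stromal UUO, 0 to 1 for stromal rUUO against UUO and 3 to 6 for stromal rUUO against sham, and stayed at 0 for the other 4. Of 611 recomputed differences of named members, 500 kept their call, 111 lost it and 0 changed sign. With 3 or 4 libraries a group and no counts, the values cannot separate biological from technical spread, and genes near 0 FPKM are limited by the 2-decimal rounding. The share of higher among all genes called moved by over 10 percentage points under quantile normalization in PT rUUO against UUO (17.6% to 59.3%) and sham (87.3% to 69.6%), endothelial rUUO against UUO (75% to 33.3%) and sham (79.3% to 60.7%), stromal rUUO against UUO (70.8% to 54%) and sham (67.6% to 51.9%), and the changes of PT minus macrophage (88.6% to 58.2%), endothelial (90.5% to 64.2%) and stromal cells (78.9% to 53.2%), besides PT UUO (85% to 51.8%). Without mitochondrial genes it moved in PT UUO (to 70.1%), PT rUUO against UUO (to 51.1%), endothelial UUO (64.5% to 48.2%), stromal UUO (50.8% to 38.8%), stromal rUUO against sham (to 49.8%), the changes of PT minus macrophage (to 77.2%), macrophage minus endothelial (47.7% to 63.7%) and macrophage minus stromal cells (51.4% to 62.8%), and sham levels of PT minus macrophage (19.3% to 47.5%), endothelial (13.9% to 30.5%) and stromal cells (11.3% to 23.3%) and of macrophages minus endothelial (45.1% to 30.3%) and stromal cells (40.9% to 23.9%). FPKM rescaled to 1 sum moved the macrophage minus stromal change to 41.3%.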
